A study of Mus musculus with 12 samples.

Results

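Oxidative stress defence genes encode the proteins that sense, neutralise and repair the damage of reactive oxygen species. The 10 genes described here were the rows named *Nfe2l2*, *Hmox1*, *Nqo1*, *Gclc*, *Gclm*, *Txnrd1*, *Gpx1*, *Gpx2*, *Sod1* and *Sod2* among 37432 genes of 1 expression table, and all 10 were found once. They were read in cochleae of wild-type (wt) mice and of mice homozygous for the *Gjb2* 35delG deletion (ho; the sample descriptions call them KO), collected at P14, before adulthood. *Gjb2* encodes connexin 26, a gap junction protein of the supporting cells and the lateral wall. Each cochlea was divided surgically into an apical, a middle and a basal section, and there were 2 biological repeats for every turn of either genotype, 12 libraries in all. Homozygous males were derived by tetraploid complementation wholly from embryonic stem cells of homozygous embryos, whose parents were heterozygous mice. These males had an almost C57BL/6J background, came from cesarean deliveries and were raised by ICR nurses. The wild-type males were bought. Genotype and origin therefore cannot be told apart in any comparison below, and the sources used here give neither the number of mice nor the number of stem cell clones behind a library.

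Reactive oxygen species arise from mitochondrial respiration and from oxidase enzymes. The transcription factor NRF2, encoded by *Nfe2l2*, is held in the cytoplasm by KEAP1 and degraded. Oxidants and electrophiles modify KEAP1, and NRF2 then enters the nucleus, pairs with a small MAF protein and binds antioxidant response elements beside its targets. Among those targets are *Hmox1*, *Nqo1*, *Gclc*, *Gclm* and *Txnrd1*. Superoxide dismutases turn superoxide into hydrogen peroxide, and glutathione peroxidases reduce peroxides with glutathione. The cochlea is a tissue of high metabolic rate, and oxidative damage is a known feature of noise, drug and age-related hearing loss. The transcript levels below do not measure reactive oxygen species or enzyme activity.

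GPX1 and GPX2, the pair of glutathione peroxidases among the members, carry the rare amino acid selenocysteine in the active site. It is written by a TGA codon, which elsewhere is a stop signal. The stretches around these codons are shown because they carry the feature that both enzymes share. In the GENCODE transcripts of GRCm38 (the mm10 build, which the authors also used) the codon is number 47 of *Gpx1*, at chr9:108339451-108339453 on the plus strand, and number 40 of *Gpx2*, at chr12:76795256-76795258 on the minus strand. Capitals mark the in-frame TGA.
Gpx1: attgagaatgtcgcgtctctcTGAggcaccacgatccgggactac
Gpx2: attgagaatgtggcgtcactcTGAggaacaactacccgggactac
The coding sequences have 603 and 570 bases, and 404 of 566 aligned bases are the same (71.4%), with no identical run longer than 22 bases. The authors kept uniquely mapped reads of 150 bases, which is longer than this run, and levels of both genes remain estimates. Whether counting used strand is not given in the sources used here.

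Antioxidant response elements are the sites at which NRF2 is known to act. The core TGACNNNGC was searched on both strands in the 250 bases before each RefSeq transcription start (GRCm38.p6). It was found in 3338 of 32851 promoters, or 10.2%. The promoter table held 10 promoters of 8 members (3 of them of *Txnrd1*), and had no entry for *Hmox1* and *Gclc*. The core was present in 4 of the 10, those of *Nfe2l2*, *Gclm*, *Sod1* and 1 of *Txnrd1*. Each match is printed with 10 bases on either side, the core in capitals, because these are the letters an NRF2 site would have. The windows lie at chr2:75704885-75704913, chr3:122245413-122245441, chr10:82859104-82859132 and chr16:90220696-90220724 in this order, all read on the minus strand.
Nfe2l2: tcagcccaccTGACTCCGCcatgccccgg
Gclm: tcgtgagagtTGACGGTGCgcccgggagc
Txnrd1: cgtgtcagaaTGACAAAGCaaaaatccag
Sod1: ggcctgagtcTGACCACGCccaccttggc
A match in letters is not a bound site, and the level changes below were not ordered by it.

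Levels are FPKM, fragment counts corrected for transcript length and for library size, and can therefore be compared between genes. The deposited FPKM were divided by a factor per library (0.920 to 1.06) that sets the median gene equal, and are called scaled FPKM. Genotypes were compared with limma on log2(scaled FPKM + 1), which understates the change of genes near 1 FPKM, for the 16215 genes that reached 1 FPKM in a minimum of 2 libraries. All adjusted p-values are limma's, two-sided, with Benjamini-Hochberg adjustment over these genes. A gene was called when its adjusted p was under 0.01 and its fold change over 2. Read counts were not used here, so the depth behind each value is unknown, and errors come from the spread of repeats alone. That spread is shared by all groups of the fit, so an SE or interval is not the precision of only the libraries compared. With 2 repeats a group, the precision is low.

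The libraries differed in make-up along lines that the turn labels do not give. The ho basal libraries held the least hair cell transcript (10 marker genes summing to 4.96 and 8.05 scaled FPKM, against 106 and 113 in wt basal) and the most neuronal transcript (9 genes, 2649 and 2964, against 10.3 and 773). Between ho and wt basal libraries 696 genes were called and between ho basal and wt middle libraries 19. Between ho and wt middle libraries 29 genes were called and between ho middle and wt basal libraries 13. These counts were unstable: the 696 ranged from 40 to 1840 and the 19 from 4 to 147 with each library left out. The basal count was 22 against 15 with library weights, and was not the larger one without wt basal repeat 1 (99 against 127) or with only the libraries compared (0 against 5). The section labels are used as given. For the members, ho basal libraries were also compared with wt middle ones and ho middle with wt basal ones, here called the crossed comparisons, which use the same libraries over again. *Gjb2* itself, whose single-base deletion a gene level cannot check, lay between 139 and 433 in wt libraries, between 255 and 449 in ho apical and middle libraries, and at 126 and 58.4 in ho basal libraries. In such bulk samples, fewer cells of a type and less RNA per cell cannot be told apart.

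All 10 members passed the filter and reached 1 FPKM in all 12 libraries. The most abundant was *Sod1*, with a median of 234 scaled FPKM over the libraries, followed by *Gpx2* (87.8) and *Gpx1* (72.4). *Nfe2l2* (22.7), *Txnrd1* (20.6), *Sod2* (18.2) and *Gclc* (14.4) formed a middle range, and *Nqo1* (11.6), *Hmox1* (7.30) and *Gclm* (7.01) were the lowest. Neighbours in this order overlapped in their ranges over the libraries, except *Gpx1*, whose lowest library (40.8) was above the highest of *Nfe2l2* (33.0). The spread over the libraries was widest for *Gpx2*, whose highest library was 157 times its lowest. For the other members this ratio ran from 1.48 for *Txnrd1* to 12.7 for *Hmox1*.

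**Figure D1:**
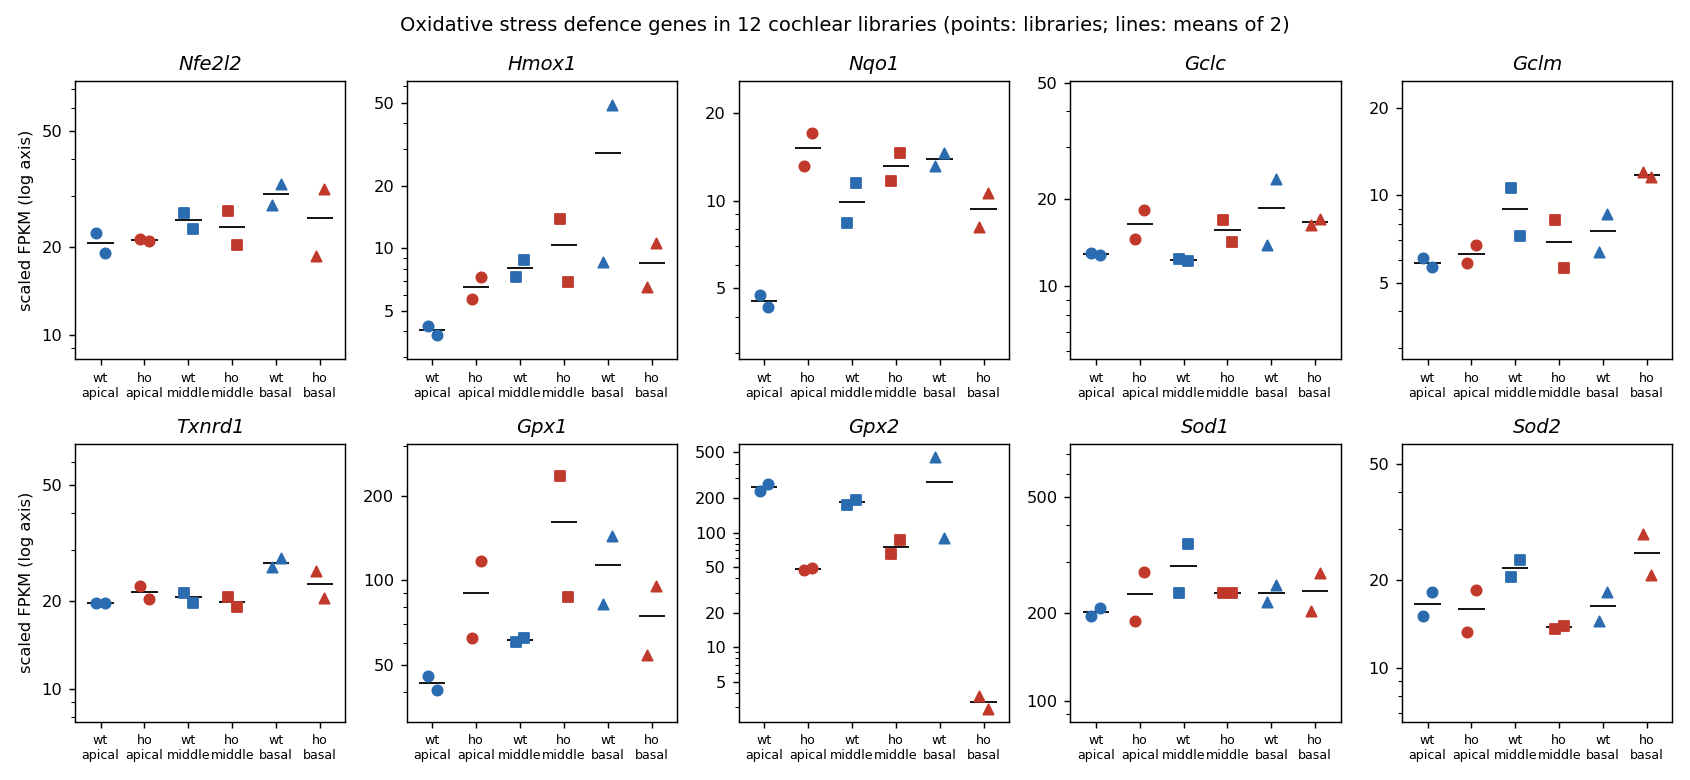
Scaled FPKM on a log axis of each of the 10 genes in the 12 libraries (blue wt, red ho; circles apical, squares middle, triangles basal; each point a library, each line the mean of 2). *Gpx2* is the gene whose 6 ho libraries (2.91 to 85.4) all lie below its 6 wt libraries (90.3 to 458).

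*Gpx2* (ENSMUSG00000042808.8, chr12:76792333-76795554, minus strand), the epithelial glutathione peroxidase best known from the gut, was the member with the largest difference between genotypes. In wt libraries it read 232 and 263 scaled FPKM in the apical, 174 and 193 in the middle, and 458 and 90.3 in the basal turn. In ho libraries it read 46.8 and 49.2 in the apical, 64.9 and 85.4 in the middle, and 3.79 and 2.91 in the basal turn. In scaled FPKM every ho library was below every wt library, whichever turn it came from. This held for 238 of the 16215 genes (1.47%), of which 107 were lower in ho (0.66%), and for no other member. In FPKM as deposited the genotypes of *Gpx2* overlapped, since ho middle repeat 2 read 90.5 and wt basal repeat 2 read 87.4. The ho basal libraries were far below the rest, while the wt basal pair was 5.08-fold apart.

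In the basal turn *Gpx2* fell from a mean of 274 to 3.35, a log2 fold change of -5.56 ± 0.58 (SE, n = 2 and 2, 95% interval -6.89 to -4.24, limma adjusted p = 0.0027). It was the 1 member called in that turn, where 4.29% of all genes were called and 1.76% were called lower. Against the wt middle libraries the ho basal pair was also lower, by -5.41 on the log2 scale (mean 183 to 3.35, limma adjusted p = 0.0075), and again no other member was called (0.117% of all genes). Under 20 alternatives, 12 of which left out a library, this difference stayed between -5.25 and -5.74 but was called in 6, with a limma adjusted p of at most 0.0924. It was not called when any 1 library other than the wt basal pair was left out. The basal call was lost when only the 4 basal libraries entered the fit (limma adjusted p = 0.137), and without ho basal repeat 1 or 2 (0.0102 and 0.0115). The size of the change stayed between -4.40 and -6.73 whichever library was left out. The SE and interval of the basal difference use the spread shared by all groups. They are not the precision of the basal libraries alone, where the wt pair read 458 and 90.3 scaled FPKM.

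In the apical turn *Gpx2* differed by -2.34 ± 0.58 on the log2 scale (mean 248 in wt and 48.0 in ho, 95% interval -3.67 to -1.01), with a limma adjusted p of 0.108. No member was called there, where 0.179% of all genes were, and 2 of 10 had an unadjusted limma p under 0.05 (16.4% of all genes). When the 4 apical libraries were fitted alone, with library weights, or without wt basal repeat 1 or 2, the same difference was called (limma adjusted p of 0.0032, 0.0058, 0.002 and 0.002). In the middle turn the means were 183 and 75.1, a log2 difference of -1.29 ± 0.58 (limma adjusted p = 0.21), and again no member was called, against 0.179% of all genes, with 2 of 10 at an unadjusted limma p under 0.05 (25.4% of all genes). The ho middle libraries set against wt basal ones gave -1.44 (limma adjusted p = 0.676, 0.0802% of all genes called), and was called only without wt basal repeat 2 (-2.61, limma adjusted p = 0.00403). Over the mean of the 3 turns the log2 difference was -3.06 ± 0.34 (limma adjusted p = 0.0045), and *Gpx2* was the 1 member called against 0.376% of all genes. The fit treats the 3 sections as separate samples, although sections of 1 cochlea may stand behind libraries of different turns, which the labels do not tell. With a replicate block the call was lost (limma adjusted p = 0.011). That call was lost when any 1 library other than the wt basal pair was left out, with limma adjusted p-values from 0.0146 to 0.0283. The genotype difference was larger in the basal than in the middle turn by -4.28 on the log2 scale (limma adjusted p = 0.00816), a contrast in which 8.91% of all genes were called. It was called in 7 of 20 alternatives (limma adjusted p of at most 0.0357) and, of the 12 that left out a library, in those without wt basal repeat 1 or 2.

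**Figure D2:**
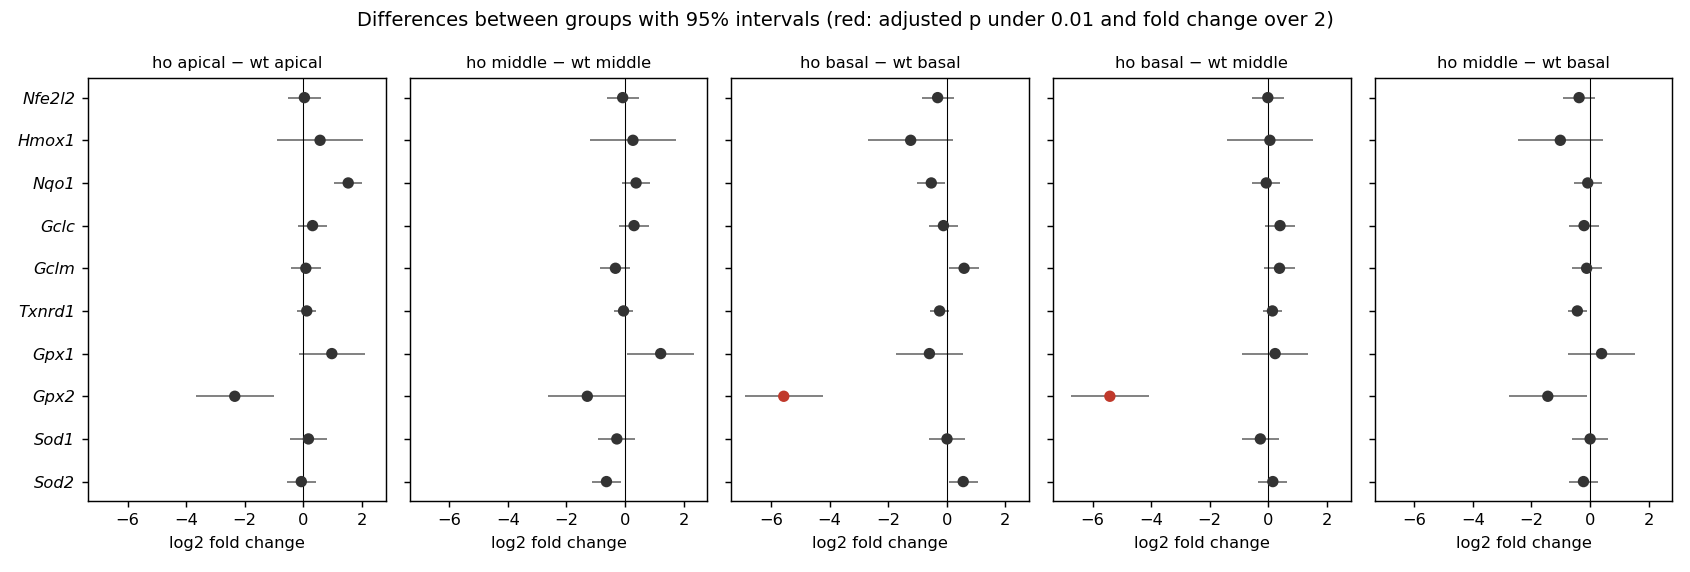
Log2 fold change (x axis) of each of the 10 genes (y axis) with its 95% interval, in the 3 comparisons of genotypes within a turn and in the comparisons of ho basal with wt middle and ho middle with wt basal libraries; red marks called genes. *Gpx2* is called in the basal turn (-5.56) and in ho basal against wt middle libraries (-5.41), and no other gene is called in these 5 comparisons.

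The summed level of markers of supporting cells and of the tectorial membrane, the gel that overlies the hair cells, was low in the libraries in which *Gpx2* was low, but its genes did not move as 1 group. All 9 genes of this list were tested, and their sum was 2429 and 2553 in wt apical, 1516 and 1294 in wt middle, 2501 and 491 in wt basal, 817 and 538 in ho apical, 447 and 687 in ho middle, and 32.2 and 13.8 in ho basal libraries. The wt basal library with the lower *Gpx2* was also the one with the lower sum. In the basal turn 4 of the 9 genes were called lower and 0 higher, in the middle turn 0 either way (4 were higher at an adjusted p under 0.05), and in the apical turn 1 higher and 0 lower. Of all genes 1.76% were called lower in the basal turn, and 0.179% were called in the middle and in the apical turn. At an adjusted p under 0.05 it was 3.99% in the middle turn, in either direction. *Ceacam16*, a tectorial membrane glycoprotein, had means of 2101, 1280 and 1328 scaled FPKM in the wt apical, middle and basal turns and of 114, 361 and 5.55 in the ho turns. *Tectb*, beta-tectorin of the same membrane, had means of 73.7, 0.314 and 5.28 in wt and of 318, 39.7 and 0.0666 in ho libraries, so it was higher in ho where *Gpx2* was lower in the apical and middle sections. None of the 9 was listed at 0 in both libraries of any group. Spiral ligament fibrocyte markers (4 genes) summed to 463 and 2497 in ho basal libraries and to between 6503 and 11529 elsewhere. The part of either cell type in the *Gpx2* result was not tested.

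The genes whose profile over the 12 libraries was nearest to that of *Gpx2*, by root mean square difference of centred log2 levels, were *Gm30191* (0.55), *Otoa* (0.62), *P2rx2* (0.62), *Kcnj16* (0.63) and *1810028F09Rik* (0.65). The median over 16214 genes was 2.09, and *Gpx2* varied by 2.06 around its own mean. *Otoa* encodes otoancorin, which attaches the tectorial membrane to the spiral limbus, and is 1 of the 9 markers above. *P2rx2* encodes an ATP-gated cation channel and *Kcnj16* a potassium channel subunit. *Otoa* ran from 31.98 to 192 scaled FPKM in wt libraries and from 0.478 to 83.8 in ho libraries. Its genotypes thus overlapped, unlike those of *Gpx2* in scaled FPKM.

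**Figure D3:**
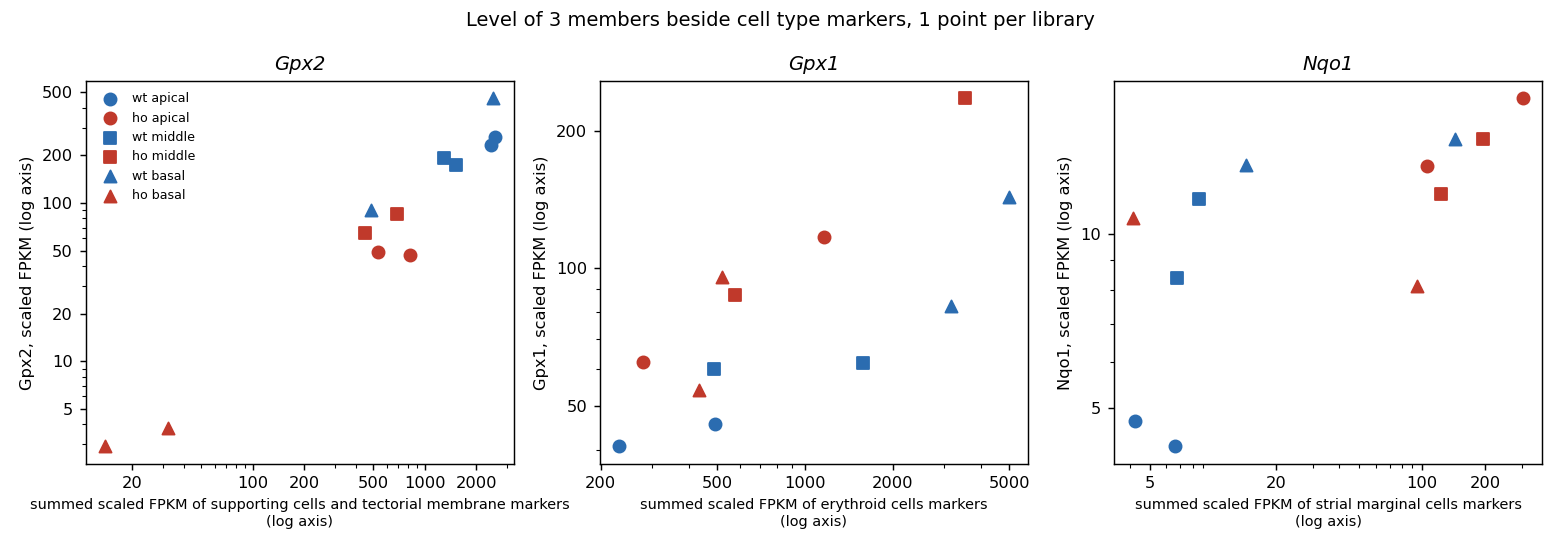
Scaled FPKM of *Gpx2*, *Gpx1* and *Nqo1* (y axes) against the summed scaled FPKM of supporting cell and tectorial membrane, erythroid, and strial marginal cell markers (x axes), all log axes, 1 point per library, colours and shapes as in the legend. The 2 ho basal libraries are lowest in both *Gpx2* (2.91 and 3.79) and its marker sum (13.8 and 32.2).

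*Gpx1* (ENSMUSG00000063856.7, chr9:108338903-108340343, plus strand), the glutathione peroxidase of nearly all cells, did not move with *Gpx2*. In wt libraries it read 45.5 and 40.8 in the apical, 60.0 and 62.1 in the middle, and 82.5 and 143 in the basal turn. In ho libraries it read 62.3 and 117, 235 and 87.4, and 54.2 and 95.5 in the same order. Both ho apical libraries were above both wt apical ones, and both ho middle above both wt middle ones, whereas the basal libraries overlapped. The log2 differences were 0.97 ± 0.50, 1.22 ± 0.50 and -0.59 ± 0.50, none of them called (limma adjusted p = 0.376, 0.171 and 0.464). Ho basal against wt middle libraries gave 0.23, and ho middle against wt basal libraries 0.40. The highest value, 235, came from ho middle repeat 1, whose erythroid markers (7 genes, 3524 against 576 in repeat 2) and neutrophil markers (8 genes, 6127 against 332) were also high. Without that library the middle difference was 0.51 and without the other 1.93. The part of these cells in the *Gpx1* level was not tested.

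*Sod1* (chr16:90220754-90226329), the cytosolic copper-zinc superoxide dismutase, was high and even. Its values ran from 195 to 344 in wt and from 187 to 276 in ho libraries, and the log2 differences of the 3 turns lay between -0.28 and 0.18. In the basal turn the difference was 0.01 (95% interval -0.61 to 0.64), and the crossed differences were -0.27 for ho basal and 0.01 for ho middle libraries. *Sod2* (chr17:13006846-13040063), the manganese enzyme of mitochondria, read 15.0 and 18.1, 20.5 and 23.4, and 14.4 and 18.2 in the wt apical, middle and basal turns. The ho libraries read 13.3 and 18.5, 13.6 and 13.9, and 28.8 and 20.8. Its genotypes did not overlap in the middle turn, where ho was lower, nor in the basal turn, where ho was higher. The log2 differences were -0.63 ± 0.22 and 0.57 ± 0.22 (limma adjusted p = 0.116 and 0.107), neither called. The change of the difference from middle to basal turn was 1.20 (limma adjusted p = 0.0245), which is over the threshold of 0.01. With the middle and basal libraries of the genotypes crossed, the differences were 0.15 for ho basal against wt middle and -0.22 for ho middle against wt basal libraries.

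*Nfe2l2* (chr2:75675513-75704641), which encodes NRF2 itself, differed little. Its wt values were 22.3 and 19.1, 26.3 and 23.1, and 27.97 and 33.0 in the apical, middle and basal turns, and its ho values were 21.3 and 21.01, 26.6 and 20.3, and 18.6 and 31.7. The genotypes overlapped in each turn. The log2 differences were 0.04, -0.08 and -0.31, with 95% intervals from -0.51 to 0.59, -0.63 to 0.47 and -0.86 to 0.24, so a change of 2-fold lay outside the interval of each turn. The crossed differences were -0.02 for ho basal and -0.37 for ho middle libraries. NRF2 is regulated mainly through its stability, which a transcript level does not show.

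*Nqo1* (ENSMUSG00000003849.8, chr8:107388225-107403206, minus strand), a quinone reductase often read as an NRF2 target, had the largest positive difference of the members in the apical turn. It read 4.75 and 4.30 in wt apical and 13.1 and 17.1 in ho apical libraries. Wt libraries read 8.38 and 11.5 in the middle turn and 13.1 and 14.6 at the base, and ho libraries 11.7 and 14.6 in the middle turn and 8.12 and 10.6 at the base. The wt apical pair was thus the lowest of all groups, and the order of the genotypes turned round between apex and base.

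The apical log2 difference of *Nqo1* was 1.53 ± 0.21 (mean 4.53 to 15.1, 95% interval 1.06 to 2.01), with a limma adjusted p of 0.0168, so it was not called at 0.01. It was 1 of 10 members past an adjusted p of 0.05, where 0.931% of all genes were. With library weights it was called (limma adjusted p = 0.0018). The middle difference was 0.38 (limma adjusted p = 0.298) and the basal difference -0.52 (limma adjusted p = 0.121), and ho basal against wt middle and ho middle against wt basal libraries gave -0.07 and -0.08. The genotype difference changed from apical to basal turn by -2.06 on the log2 scale (limma adjusted p = 0.00991). It was the 1 member called in that contrast, in which 0.796% of all genes were called. The change lay between -1.88 and -2.27 under 20 alternatives and was called in 4 (limma adjusted p of at most 0.0618), of those that left out a library only without wt basal repeat 2. Within wt mice the basal libraries exceeded the apical ones by 1.42 (limma adjusted p = 0.0311, not called; 0.0863% of all genes were called).

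Markers of strial marginal cells, which secrete potassium into the endolymph, also had a higher sum in ho apical than in wt apical libraries. Their 6 genes summed to 4.22 and 6.56 in wt apical, 6.74 and 8.56 in wt middle, 14.3 and 144 in wt basal, 106 and 304 in ho apical, 124 and 195 in ho middle, and 95.1 and 4.16 in ho basal libraries. All 6 were higher in ho in the apical turn, with 0 called (0.179% of all genes) and 5 at an unadjusted limma p under 0.05 (16.4%). In wt apical libraries 1 of the 6 was listed at 0 in both. In the basal turn the sum did not follow *Nqo1*: the ho library with the higher sum had the lower *Nqo1* (8.12 against 10.6). In the apical turn the sums of melanocyte and strial intermediate cell, osteoblast and osteocyte, macrophage and endothelial markers were also higher in ho libraries. The sums of neuron, Schwann cell, hair cell and supporting cell markers were lower there, and the other sums overlapped. The part of the stria vascularis, or of any other cell type, in the *Nqo1* result was not tested.

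*Hmox1* (chr8:75093621-75100589) encodes the inducible heme oxygenase, which breaks down heme and is also high in macrophages that clear red cells. Its wt values were 4.25 and 3.83, 7.27 and 8.75, and 8.59 and 48.8 in the apical, middle and basal turns. Its ho values were 5.725 and 7.33, 13.9 and 6.89, and 6.52 and 10.6. A single library, wt basal repeat 2, stood far above the others. The basal log2 difference of -1.23 ± 0.64 (limma adjusted p = 0.227) became -0.04 without that library. Ho basal against wt middle libraries gave 0.05, and ho middle against wt basal libraries -1.01. Wt basal repeat 2 also had the highest sums of erythroid (4979), macrophage (8 genes, 259) and osteoblast and osteocyte markers (7 genes, 2868). The next highest erythroid sums were 3524 in ho middle repeat 1 (*Hmox1* 13.9) and 3170 in wt basal repeat 1 (*Hmox1* 8.59). The part of these cells in the *Hmox1* level was not tested. In the apical turn both ho libraries were above both wt libraries, by 0.57 ± 0.64 on the log2 scale (limma adjusted p = 0.721).

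*Gclc* (chr9:77754535-77794485) and *Gclm* (chr3:122245557-122270732) encode the catalytic and the modifier subunit of glutamate-cysteine ligase, the rate-limiting enzyme of glutathione synthesis. *Gclc* read 12.3 to 13.9 in 5 of the 6 wt libraries and 23.3 in wt basal repeat 2, and 14.2 to 18.3 in ho libraries. Both ho libraries exceeded both wt libraries in apical and in middle sections, by 0.31 on the log2 scale in each (limma adjusted p = 0.531 and 0.424). The crossed differences of *Gclc* were 0.40 for ho basal and -0.20 for ho middle libraries. *Gclm* read 6.07 and 5.68, 10.6 and 7.27, and 6.41 and 8.64 in the wt apical, middle and basal turns, and 5.87 and 6.75, 8.21 and 5.63, and 12.01 and 11.6 in the ho turns. The ho basal pair was the highest of all groups, with a basal log2 difference of 0.60 ± 0.23 (limma adjusted p = 0.104), and 0.38 against wt middle libraries. Neither subunit was called in any turn.

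*Txnrd1* (chr10:82833951-82897712), the cytosolic thioredoxin reductase and a selenoprotein like the peroxidases, varied least of the members. Its values lay between 19.7 and 28.1 in wt and between 19.0 and 25.4 in ho libraries. The log2 differences were 0.12, -0.05 and -0.24 in the apical, middle and basal turns, and the 95% intervals reached from -0.57 to 0.44 in all. The highest group was wt basal, with 26.1 and 28.1. The crossed differences were 0.14 for ho basal and -0.43 for ho middle libraries.

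Side by side, 8 of the 10 members were higher in ho apical, 4 in ho middle and 3 in ho basal libraries than in wt libraries of the same turn. The median log2 difference of the members was 0.15, -0.06 and -0.27 in this order, where all genes tested had -0.03, 0.04 and -0.02. Libraries of the genotypes did not overlap for 6 members in apical, 6 in middle and 5 in basal sections, while this held for 59.0%, 59.5% and 54.0% of all genes. These shares are near the background. In ho basal against wt middle libraries the median of the members was 0.10, and in ho middle against wt basal libraries -0.21.

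Beyond the members, 9 lists of genes of the same pathways were compared, from NRF2 regulators to selenocysteine supply. Of their 117 genes 110 were tested. None was called in the apical or the middle turn (0.179% of all genes in each), at an adjusted p under 0.05 it was 1 and 2 genes (0.931% and 3.99% of all genes), and at an unadjusted limma p under 0.05 it was 20 and 31 (16.4% and 25.4%). In the basal turn 3 genes were called, all lower in ho, against 4.29% of all genes called and 1.76% called lower. The 3 became 8 without wt basal repeat 2 and 0 or 1 without any other single library, and 0 without a filter, with only the libraries compared, with library weights or with a replicate block. At an adjusted p under 0.05 it was 18, of which 16 were lower and 2 higher (18.1% of all genes). The median log2 difference of the 110 genes was 0.27 in the apical turn, with 83 above 0, then 0.20 in the middle turn, with 69 above 0, and -0.24 in the basal turn, with 35 above 0. With ho basal set against wt middle and ho middle against wt basal libraries it was -0.06 and -0.07, none was called, and 10 and 9 had an unadjusted limma p under 0.05 (14.0% and 6.98% of all genes).

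The first of the 3 was *Gpx3*, the secreted glutathione peroxidase of plasma. It read 570 and 116 scaled FPKM in wt basal and 27.9 and 17.2 in ho basal libraries, a log2 difference of -3.50 ± 0.61 (limma adjusted p = 0.0087). Its wt apical (269 and 243) and middle (236 and 250) values were close to each other, and ho apical libraries had 158 and 124. Ho middle libraries read 355 and 240, so *Gpx3* was not lower in ho in the middle turn. Set against wt middle libraries, ho basal *Gpx3* was lower by -3.41 on the log2 scale, with a limma adjusted p of 0.0623. The pair of wt basal libraries thus differed in *Gpx3* as in *Gpx2*, with repeat 1 the higher.

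*Msrb3*, a methionine sulfoxide reductase whose loss causes deafness, read 19.0 and 13.1 in wt basal and 5.07 and 3.64 in ho basal libraries (-1.66 ± 0.24, limma adjusted p = 0.0055). Against wt middle libraries (7.50 and 10.05) the difference was -0.87 (limma adjusted p = 0.157). *Gstk1*, a glutathione transferase of mitochondria and peroxisomes, read 30.9 and 21.6 in wt basal and 7.42 and 10.8 in ho basal libraries (-1.43 ± 0.23, limma adjusted p = 0.0075), and -0.95 against wt middle libraries (limma adjusted p = 0.119). All 3 genes lost the call when the libraries were crossed, although the size of the *Gpx3* difference hardly changed. Calls in these comparisons are not alike, since an adjusted p also depends on the other genes tested. Of all genes 4.29% were called in the basal turn and 0.117% in ho basal against wt middle libraries. A lost call alone therefore does not show a smaller difference. *Gpx2* kept its call in the same fit, but in only 6 of 20 alternatives.

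Glutathione transferases join glutathione to electrophiles. Of the 20 tested, 19 were higher in ho apical and 14 in ho middle libraries (medians 0.53 and 0.45), and 3 in ho basal libraries (median -0.55). Of all 16215 genes 7628, 8653 and 7831 were higher in ho in the same order. In the crossed comparisons 9 of the 20 were above 0 for ho basal (median -0.03) and 8 for ho middle libraries (median -0.15). *Gsta4*, the transferase of lipid peroxidation products and the most abundant of the list, read 48.5 and 42.5 in wt apical and 159 and 339 in ho apical libraries (2.33 ± 0.62, limma adjusted p = 0.126). It read 77.4 and 206 in wt basal and 106 and 44.1 in ho basal libraries, with crossed differences of 0.59 for ho basal and 0.73 for ho middle libraries. NADPH oxidases and other oxidant sources (7 of 13 genes tested) had medians of 0.67, 1.29 and -1.01 in the apical, middle and basal turns. *Cyba*, the p22phox subunit of these oxidases, had log2 differences of 1.26, 1.33 and -1.29 (limma adjusted p = 0.0811, 0.0411 and 0.0159), none of them called, and -0.31 and 0.35 in the crossed comparisons. Neutrophils are rich in this subunit, and neutrophil markers (8 genes) were higher in ho in the apical and middle turns and lower in the basal turn for all 8. Their part in the *Cyba* values was not tested.

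Genes of glutathione synthesis and recycling had medians of 0.26, -0.08 and 0.19. The most abundant of them, *Slc3a2*, the heavy chain of the cystine importer, read 36.5 and 31.8 in wt and 56.6 and 65.7 in ho apical libraries, and 45.5 and 42.4 in wt and 71.97 and 75.3 in ho basal libraries. Its log2 differences were 0.82 and 0.73 (limma adjusted p = 0.039 and 0.0118), under a 2-fold change and not called. Middle libraries of *Slc3a2* read 45.4 and 47.8 in wt and 55.1 and 59.3 in ho. Every ho library was thus above every wt library, and 1.47% of all genes did not overlap in either direction. Among genes of the thioredoxin and peroxiredoxin system *Srxn1*, sulfiredoxin, which repairs peroxiredoxins and is an NRF2 target, was singled out after its values were seen. It read 5.71 and 15.8 in wt basal and 30.5 and 26.4 in ho basal libraries (1.47 ± 0.37, limma adjusted p = 0.0284). Middle libraries of *Srxn1* went the other way, with 18.7 and 19.7 in wt and 9.62 and 7.46 in ho. Its genotypes overlapped in the apical turn, so *Srxn1* was higher in ho in the basal turn only. *Ephx1*, the microsomal epoxide hydrolase, was singled out in the same way for its middle difference of 1.12 (limma adjusted p = 0.0477). It was also higher in ho in the apical turn (48.5 and 45.8 in wt, 92.9 and 124 in ho). In the basal turn it was lower in ho (65.9 and 57.5 in wt, 47.0 and 30.0 in ho). NRF2 regulators, among them *Keap1*, had medians within 0.1 of 0 in all 3 turns and no gene past an adjusted p of 0.05.

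**Figure D4:**
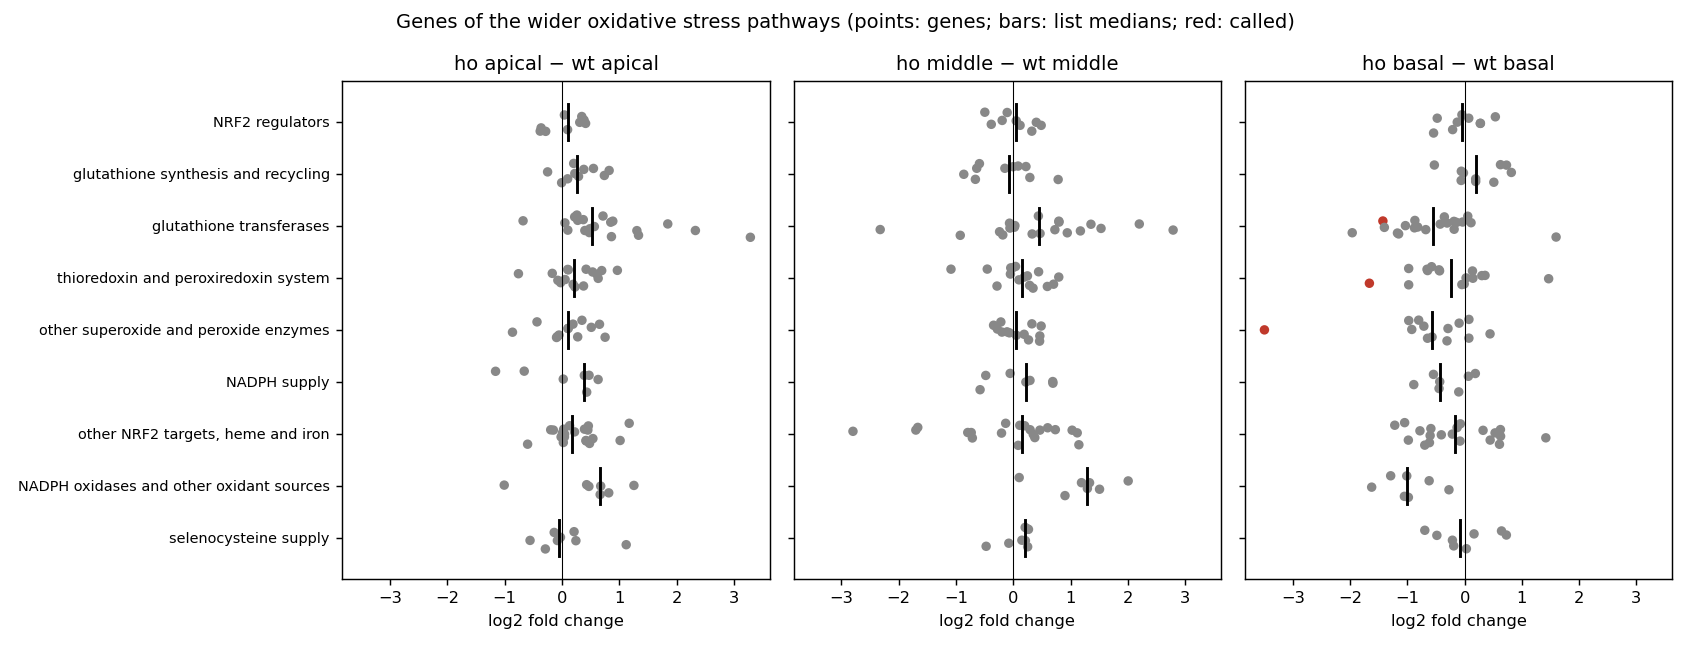
Log2 fold change (x axis) of each tested gene of the 9 pathway lists (y axis) in the 3 turns, with the list median as a bar and called genes in red. The medians of glutathione transferases are 0.53, 0.45 and -0.55 in the apical, middle and basal turns, and the 3 called genes, *Gpx3*, *Msrb3* and *Gstk1*, all lie below 0 in the basal turn.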

How the data were processed

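The authors made paired-end RNA-seq libraries from total RNA, cleaned the reads with fastp 0.20.0, aligned them to mm10 with STAR 2.7.3a, discarded reads that did not map uniquely, and with StringTie 2.0 computed FPKM, which they deposited as 1 table of 12 libraries. Here FPKM were scaled by median ratios of the 11552 genes that no library put below 1 FPKM. Means of the 6 groups of log2(scaled FPKM + 1) were fitted in R 4.3.3 by limma 3.58.1 with a trended prior (6 residual and 2.78 prior degrees of freedom), after a test on simulated data. The design assumed no pairs. The named genes were all members, called pathway genes with the most abundant gene of each list, leading markers and the 5 profiles nearest to the most variable member, and *Srxn1* and *Ephx1* fall outside that rule. The members and lists were chosen with earlier results of these data known. *Nnt*, carried by 2 identifiers, was left out of list counts. Coordinates are from GENCODE vM21. Alternatives were a pseudocount of 0.1, no filter or one of 5 FPKM, FPKM as deposited, quantile normalization, only the libraries compared, library weights, a replicate block, an adjusted p under 0.05, and each library left out. Python 3.11.15 and matplotlib 3.10.9 were used.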

Additional observations from a re-analysis of the deposited data

Results flagged for a closer look

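The genotype difference of *Nqo1* was not the same along the cochlea: its value in the basal turn minus that in the apical turn was -2.06 on the log2 scale, with a limma adjusted p of 0.00991 in a test of that difference. Both ho apical libraries (13.1 and 17.1 scaled FPKM) were above both wt apical ones (4.75 and 4.30), and both ho basal libraries (8.12 and 10.6) below both wt basal ones (13.1 and 14.6). The genotype difference of *Gpx2* was larger in the basal than in the middle turn, by -4.28 on the log2 scale, with a limma adjusted p of 0.00816. Both rest on the labels of the basal section, where 696 genes were called against wt basal and 19 against wt middle libraries. That order of the counts depended on the settings, since without wt basal repeat 1 they were 99 and 127, and with only the libraries compared 0 and 5. No explanation was tested.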

How the results depend on the processing

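Counts of called members depended on the settings. In the apical turn, where 0 were called, it was 1 with only the libraries compared, 2 with library weights and 1 at an adjusted p under 0.05. The single basal call became 0 with only the libraries compared. The single call over the mean of the turns became 0 without a filter and with a replicate block. For the basal minus apical difference it was 0 with a pseudocount of 0.1, no filter, only the libraries compared, library weights or a replicate block, and 2 at an adjusted p under 0.05. For the basal minus middle difference it was 0 without a filter, with only the libraries compared or with a replicate block, and 2 at 0.05. For wt basal minus apical it was 1 at 0.05. For ho basal minus wt middle it was 0 without a filter, with FPKM as deposited, with quantile normalization or with a replicate block. Called pathway genes in the apical turn were 3 with library weights and 1 at 0.05, in the middle turn 2 at 0.05, and in the basal turn 0 without a filter, with only the libraries compared, library weights or a replicate block, and 18 at 0.05. With each library left out, called members ranged from 0 to 1 in the apical turn, the basal turn, the mean of the turns, the basal minus middle difference and both crossed comparisons, and from 0 to 2 for the basal minus apical difference; called pathway genes of the basal turn ranged from 0 to 8, the 8 without wt basal repeat 2.

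The direction of a member turned 6 times under a setting other than leaving out a library: *Sod1* apical -0.0824 with quantile normalization, and with FPKM as deposited *Nfe2l2* middle 0.0854, *Txnrd1* middle 0.11, and over the mean of the turns *Txnrd1* 0.0096, *Sod1* 0.0398 and *Sod2* 0.0210. FPKM as deposited moved the median of all genes in the middle turn from 0.04 to 0.17. In that setting the ho and wt libraries of *Gpx2* also overlapped. With each library left out, log2 differences that changed sign ranged as follows: apical *Nfe2l2* -0.0726 to 0.14, *Sod1* -0.10 to 0.46 and *Sod2* -0.29 to 0.16, middle *Nfe2l2* -0.27 to 0.10, *Hmox1* -0.19 to 0.73 and *Txnrd1* -0.11 to 0.0053, basal *Nfe2l2* -0.67 to 0.0647, *Gclc* -0.47 to 0.25 and *Sod1* -0.19 to 0.23, mean of the turns *Nfe2l2* -0.24 to 0.0103, *Hmox1* -0.53 to 0.27, *Sod1* -0.12 to 0.0634 and *Sod2* -0.12 to 0.0334. *Gpx2* and *Nqo1* kept their sign in each turn. The cause was not tested. Differences between repeats correlated from -0.43 to 0.45 over 15 pairs of groups, 4 of them over 0.1, so repeat numbers did not match in a regular way. Numbers may run in another order in each turn, so these values do not decide whether libraries share cochleae. The replicate block is therefore given only as an alternative. Higher calls in the basal turn were 410 of 696, 273 of 587 with a pseudocount of 0.1 and 518 of 799 with quantile normalization. With 2 repeats a group and unknown depth, a missed threshold does not show that levels were alike.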
